A study of Mus musculus with 4 samples.

Results

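The S100 calcium-binding proteins are described here through 8 genes chosen by symbol, S100a1, S100a4, S100a6, S100a8, S100a9, S100a10, S100a11 and S100a13, out of 22554 genes named once in each of the 2 deposited tables. All 8 were found in both tables, and 7 reached the level needed for a test (at least 1 FPKM in at least 2 libraries, a bar that 10202 genes passed). S100a9 was listed at 0 in all 4 libraries and was not tested. The libraries are from RAW264.7, an established mouse macrophage line, without a stated genetic change: 2 libraries of RAW264.7 cells cocultured with CT26, a line from a mouse colon carcinoma, and 2 mock libraries of RAW264.7 cells. Coculture replicate 1 and mock replicate 1 stand in one table (pair 1), and coculture replicate 2 and mock replicate 2 in the other (pair 2). The sources used here do not give the time and medium of the coculture or the way the cells were parted afterwards. They do not say whether the replicates were separate cultures either, so the p-values rest on a spread between libraries that may be technical only.

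S100 proteins are small proteins with a pair of EF-hand calcium-binding loops that mostly work as dimers. On binding calcium, most of them expose a surface that docks partner proteins, such as annexins at membranes or myosin in the cytoskeleton. S100A8 and S100A9 together form calprotectin, an abundant cytosolic protein of neutrophils and monocytes that binds zinc and manganese and, once released, acts as an alarm signal through TLR4 and RAGE. In the mouse the S100a genes lie in a cluster on chromosome 3 that also holds the genes of the skin barrier.

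The cells carried macrophage markers. Of 10 such genes 9 were at 1 FPKM or more in each library, and Mertk was at 0.028 FPKM or less. Markers that CT26 cells could have brought in were at or near 0. The 8 epithelial genes, Epcam and Krt18 among them, summed to 0.166 and 0.045 FPKM in coculture 1 and 2, against 0.143 and 0 FPKM in mock 1 and 2. The 11 mesenchymal genes summed to 2.29 and 1.47 FPKM in coculture and 2.73 and 1.64 FPKM in mock, most of it Tagln. Whether the small remainder carried any S100 reads was not tested, and in bulk RNA fewer cells of a type and less RNA per cell cannot be told apart. The libraries held an estimated 12200000 to 16200000 reads.

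The S100 genes covered the whole range of expression of the cell line, and their order was the same in all 4 libraries except that S100a6 and S100a10 changed places in mock 2. FPKM counts fragments per kilobase of gene length, so levels of different genes within a library can be compared only as far as those lengths are right. The sources used here do not give the lengths, and the ranks, shares and ratios between genes depend on them. S100a4 ranked 6 and 7 of all genes in coculture 1 and 2, and 5 and 3 in mock 1 and 2. S100a6 and S100a10 ranked between 26 and 61 in every library. S100a11 ranked between 97 and 296, S100a1 between 602 and 1473, and S100a13 between 2187 and 3187. S100a8 stood near the edge of detection and S100a9 was listed at 0.

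Together the 8 genes held 1.29% and 1.12% of the FPKM of the 22554 shared genes in coculture 1 and 2, against 1.28% and 1.26% in mock 1 and 2. S100a4 alone made up 60.6% and 51.9% of the family's FPKM in coculture, against 63.1% and 65.9% in mock. S100a10 held 18.2% and 22.6% of it in coculture, against 16.3% and 11.4% in mock. S100a6 held 15.3% and 13.5% in coculture, against 15.2% and 13% in mock. In pair 2 the share of S100a10 was thus larger, and that of S100a4 smaller, in the coculture library. A share falls whenever another gene of the family takes more, so these are not separate measurements.

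**Figure D1:**
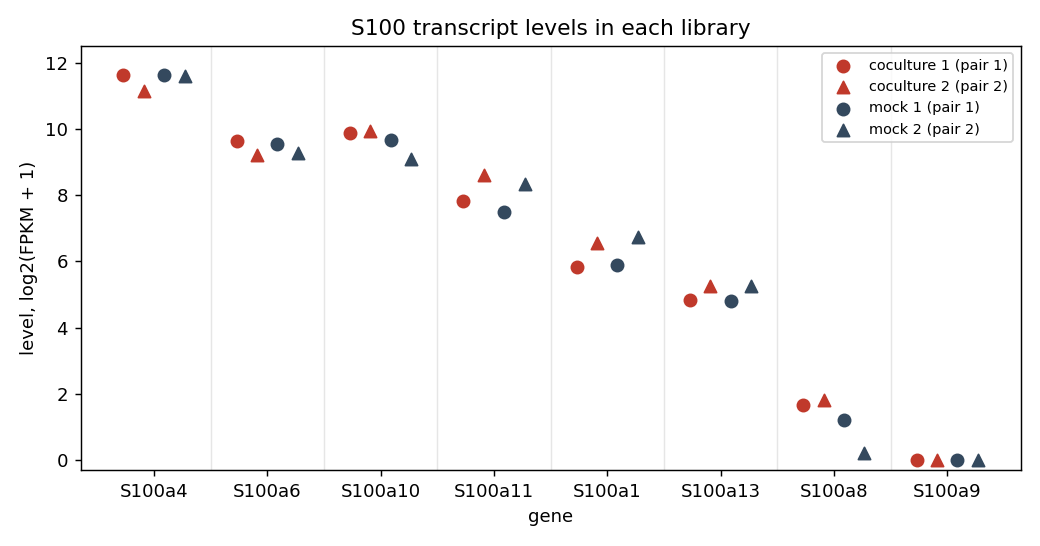
Level of each of the 8 S100 genes as log2(FPKM + 1) (vertical axis) in the 2 coculture libraries (red) and the 2 mock libraries (dark), with circles for pair 1 and triangles for pair 2. S100a4 is the highest and S100a9 lies at 0 in every library, and for S100a6, S100a11, S100a1 and S100a13 the libraries of a pair lie closer to each other than to those of the other pair.

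**Figure D2:**
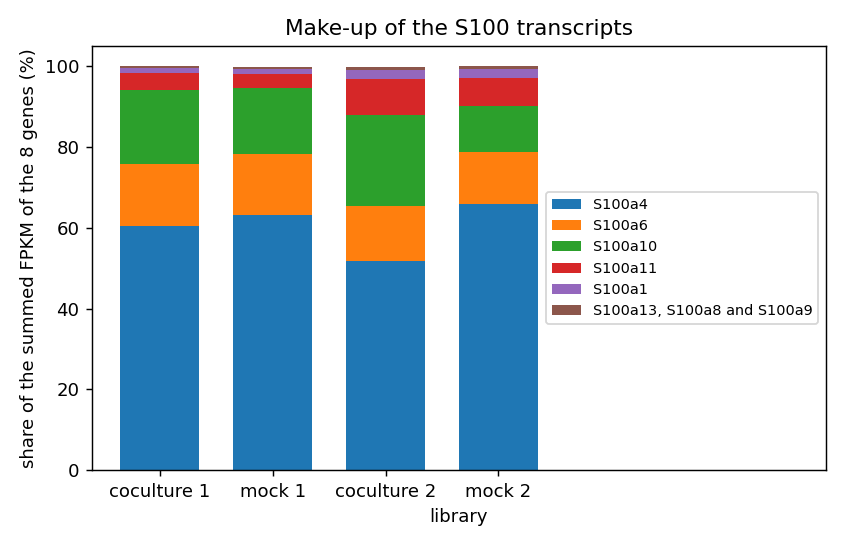
Share of the summed FPKM of the 8 genes held by each gene (vertical axis, %), one bar per library, with each coculture library left of the mock library of its pair. S100a4 holds 51.9% to 65.9% of each bar, and the S100a10 part is 22.6% in coculture 2, against 11.4% in mock 2.

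Start-site windows are shown for the most abundant gene (S100a4), the pair at the bottom of the range (S100a8 and S100a9) and S100a11. S100a11 was one of the members higher in coculture in both pairs, beside S100a8, S100a10 and S100a13. The windows come from RefSeq, build GRCm38.p6, with 250 bases before and 50 after the annotated start, and 7 of the 8 genes had an entry. S100a10 had none, so it was not searched for motifs. They lie at chr3:90603520-90603819, plus strand (S100a4), chr3:90668821-90669120, plus strand (S100a8), chr3:90695672-90695971, minus strand (S100a9) and chr3:93520246-93520545, plus strand (S100a11). Capitals mark every match to 4 motifs: the TATA box TATAAA on the gene's strand and, on both strands, TTGCNNAA (C/EBP), TGANTCA (AP-1), and an NF-kappaB motif of GGG and CC around 5 free bases.
S100a4: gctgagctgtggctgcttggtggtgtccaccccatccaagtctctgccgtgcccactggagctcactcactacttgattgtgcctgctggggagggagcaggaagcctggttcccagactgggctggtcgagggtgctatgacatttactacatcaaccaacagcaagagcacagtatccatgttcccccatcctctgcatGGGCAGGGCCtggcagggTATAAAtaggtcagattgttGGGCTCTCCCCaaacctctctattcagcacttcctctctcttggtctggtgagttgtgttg
S100a8: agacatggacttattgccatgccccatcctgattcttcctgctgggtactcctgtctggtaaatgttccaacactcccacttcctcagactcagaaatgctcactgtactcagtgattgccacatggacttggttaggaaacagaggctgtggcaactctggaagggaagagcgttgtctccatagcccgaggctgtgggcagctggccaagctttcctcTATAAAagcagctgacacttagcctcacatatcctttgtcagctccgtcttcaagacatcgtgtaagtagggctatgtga
S100a9: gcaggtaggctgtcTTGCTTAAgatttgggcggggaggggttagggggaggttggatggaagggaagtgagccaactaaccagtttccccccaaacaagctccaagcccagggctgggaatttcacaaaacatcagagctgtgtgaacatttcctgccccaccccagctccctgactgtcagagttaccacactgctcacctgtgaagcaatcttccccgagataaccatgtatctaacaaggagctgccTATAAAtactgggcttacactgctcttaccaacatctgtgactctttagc
S100a11: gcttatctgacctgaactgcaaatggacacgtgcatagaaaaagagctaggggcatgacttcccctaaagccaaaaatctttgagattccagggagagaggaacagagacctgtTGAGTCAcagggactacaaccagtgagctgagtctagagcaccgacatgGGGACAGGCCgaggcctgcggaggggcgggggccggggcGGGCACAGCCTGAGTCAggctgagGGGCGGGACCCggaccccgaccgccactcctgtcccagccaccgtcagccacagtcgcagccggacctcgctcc

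TATAAA was found in the windows of S100a4, S100a8 and S100a9 and in none of the other 4 genes with an entry, against 8.32% of all 32851 RefSeq windows. It began 31 bases before the start in S100a4, 30 bases before it in S100a8, and at the annotated start itself in S100a9. The highest gene of the family and the 2 lowest therefore share these letters. Among the 7 genes with an entry, the C/EBP letters, present in 10.8% of all windows, were found in S100a9 alone. The AP-1 letters, present in 7.81%, were found in S100a11 alone of these 7, in 2 places. The second AP-1 match directly follows an NF-kappaB match without sharing bases with it. The NF-kappaB letters are loose, being found in 50.8% of all windows. They matched 4 times in S100a11, with 2 of the matches overlapping, and 3 times in S100a4, again with an overlapping pair. They also matched 2 times each in S100a1 and S100a13, whose windows overlap, and 1 time in S100a6. They matched in neither S100a8 nor S100a9. A match describes the letters only.

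None of the 7 tested S100 genes differed between coculture and mock past the test. The test was limma on log2(FPKM + 1) with the pair as a block, two-sided, with Benjamini-Hochberg adjustment over all genes. Of all genes tested 13 (0.127%) were called, each higher in coculture, and 0 were called lower. Without adjustment, a p under 0.05 was reached by 537 genes in the higher direction and 964 in the lower. So few calls across all genes mean that 0 of 7 is near the background. At an unadjusted p under 0.05 stood 1 of the 7, S100a8, against 14.7% of all genes. Of the 7 genes 4 were higher in coculture in both pairs, against 21.5% of all genes. The 4 include S100a13, higher by only 2.38% in pair 1 and 0.735% in pair 2. In both pairs 1 gene, S100a1, was lower, by 3.64% and 12.3%, as were 42.2% of all genes, and 2 went opposite ways. The median difference of the 7 was 0.02, beside -0.07 over all genes tested. On the FPKM + 1 scale no member was 1.5-fold higher in each pair (2.4% of all genes were) or 1.5-fold lower in each pair (2.17% were). In FPKM as deposited S100a8 was 1.66 times its mock in pair 1 and 15.5 times in pair 2. The 15.5 divides by a mock 2 value of 0.162 FPKM, near the edge of detection.

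**Figure D3:**
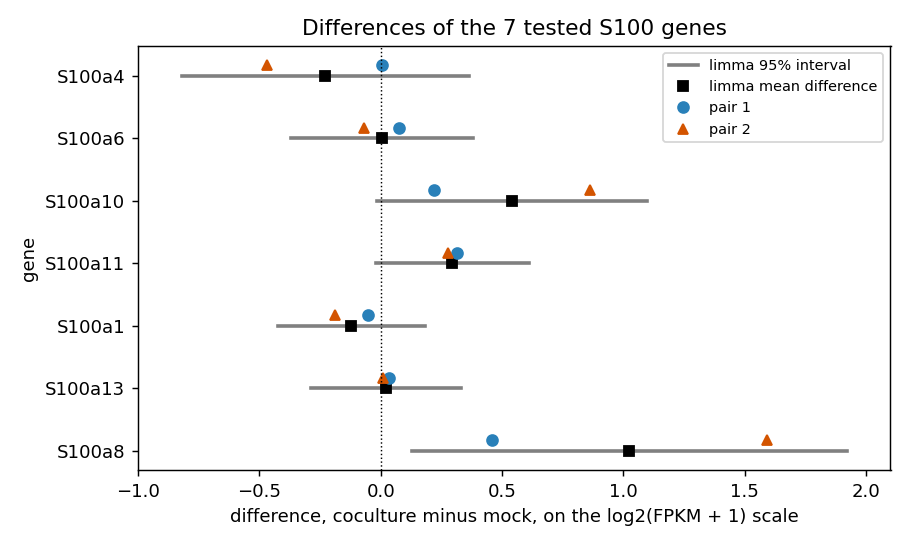
Difference of each tested S100 gene (horizontal axis, log2 of FPKM + 1, mock subtracted from coculture): circles and triangles are pair 1 and pair 2, squares the limma mean and bars its 95% interval. The 2 pairs nearly coincide for S100a11 and S100a13 and lie far apart for S100a8, S100a10 and S100a4.

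S100a10 and S100a11, which work as annexin partners, were higher in coculture in each pair. S100a10, also called p11, has lost calcium binding and joins annexin A2 at the plasma membrane, where the complex binds plasminogen. It stood at 942 and 981 FPKM in coculture 1 and 2, against 809 and 538 FPKM in mock 1 and 2. Both coculture libraries lay above both mock libraries, as they did for 10.3% of all genes. The coculture library was 16.4% higher in pair 1 and 82.1% higher in pair 2. The difference was 0.54 ± 0.21 on the log2(FPKM + 1) scale (moderated SE from limma over 2 pairs, limma adjusted p = 0.346), with a 95% interval of -0.02 to 1.10. Mock 2 was the low library and the other 3 lay within 809 to 981 FPKM.

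S100a11, or calgizzarin, binds annexin A1 and related annexins. Its level was 224 and 388 FPKM in coculture 1 and 2, against 181 and 320 FPKM in mock 1 and 2. The groups overlapped, since both libraries of pair 2 lay above both of pair 1, but within each pair the coculture library was higher, by 24.4% in pair 1 and 21.4% in pair 2. The difference came to 0.30 ± 0.12 on the log2(FPKM + 1) scale (limma adjusted p = 0.354), with a 95% interval of -0.02 to 0.61. In unblocked fits across both tables it was -0.115 without mock 1 and -0.098 without coculture 2.

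S100a4, known as metastasin or Fsp1, binds non-muscle myosin IIA and is used as a marker of fibroblasts and of some macrophages. Its level was 3143 and 2256 FPKM in coculture 1 and 2, against 3127 and 3115 FPKM in mock 1 and 2. The 2 mock libraries and coculture 1 were within 1% of one another and coculture 2 was the low one, 27.6% lower than its mock. The difference was -0.23 ± 0.22 on the log2(FPKM + 1) scale (limma adjusted p = 0.666). An exon of Gm42674 overlaps S100a4 on the same strand in GENCODE M21. Whether the authors' annotation held it, and so took reads from S100a4, is not stated.

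S100a6, or calcyclin, binds the calcyclin-binding protein and annexin A11. Its level was 793 and 586 FPKM in coculture 1 and 2, against 752 and 614 FPKM in mock 1 and 2. The groups overlapped and the pairs went opposite ways, 5.45% higher in coculture in pair 1 and 4.54% lower in pair 2. Its difference of 0.00 ± 0.14 on the log2(FPKM + 1) scale (limma adjusted p = 0.991), -0.04 after rescaling to a common total, had a 95% interval of -0.37 to 0.38. S100a10 was above S100a6 in 3 libraries, by 1.19 and 1.67 times in coculture 1 and 2 and 1.08 times in mock 1, and below it in mock 2, at 0.877 times.

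S100a1, best known as a calcium-dependent regulator of contraction in heart and skeletal muscle, stood at 55.7 and 92.4 FPKM in coculture 1 and 2, against 57.8 and 105 FPKM in mock 1 and 2. It was the one member lower in coculture in both pairs, by 3.64% and 12.3%. The difference was -0.12 ± 0.11 on the log2(FPKM + 1) scale (limma adjusted p = 0.657). S100a13, which in other cells takes part in the export of FGF1 and interleukin-1 alpha without a signal peptide, stood at 27.3 and 37.2 FPKM in coculture, against 26.7 and 36.9 FPKM in mock. The gap between the libraries of a pair was 2.38% (pair 1) and 0.735% (pair 2), and the difference was 0.02 ± 0.12 on the log2(FPKM + 1) scale (limma adjusted p = 0.942), or -0.03 after rescaling to a common total.

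S100a1 and S100a13 lie head to head, and their start-site windows share 204 of 300 bases. Their exons do not overlap in GENCODE M21. The FPKM ratio of S100a1 to S100a13 was 2.04 and 2.49 in coculture 1 and 2, against 2.17 and 2.86 in mock 1 and 2. In each pair S100a1 took slightly less, relative to S100a13, in the coculture library.

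S100a8 was barely detected. Its level was 2.20 and 2.50 FPKM in coculture 1 and 2, against 1.33 and 0.162 FPKM in mock 1 and 2. Both coculture libraries lay above both mock libraries, as for 10.3% of all genes, and mock 2 was by far the lowest. If the reads were counted over all exons of GENCODE M21, these values stand for an estimated 24.8 and 21.2 reads in coculture and 14.2 and 1.77 reads in mock, and for fewer over a shorter gene model. The 1.77 is no whole number, so the authors' length for the gene differs from that one. Over a shorter length the mock 2 value could rest on a single read, on which the pair 2 difference depends. The difference was 1.03 ± 0.34 on the log2(FPKM + 1) scale, a scale that understates low genes (limma adjusted p = 0.303), and 0.46 in pair 1 against 1.59 in pair 2. It was 2.0 with a pseudocount of 0.1, 1.37 with 0.5 and 1.45 after rescaling to a common total, with no call under any of these. The rescaling raised all values, from totals of 384413 to 439278 FPKM, before 1 was added. The pseudocount therefore weighed less there, so the 1.45 does not show the effect of scaling alone. S100a8 reached the level for testing through both coculture libraries and mock 1. Its usual partner S100a9 was listed at 0 in every library, so these libraries give no level for the other chain of calprotectin.

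Granulocyte genes were also low. Of 12 markers, Ly6g, Mpo, Ltf, Ngp and Retnlg were listed at 0 in all 4 libraries, and none reached the level for testing. The list summed to 1.57 and 15.6 FPKM in coculture 1 and 2, against 0.795 and 5.89 FPKM in mock 1 and 2. In coculture 2 most of this was Lcn2, which encodes the iron-siderophore binding protein lipocalin 2, at 12.7 FPKM, and in mock 2 all of it was Csf3r, the receptor gene of granulocyte colony-stimulating factor. Whether these markers have a part in the S100a8 values was not tested.

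The other S100 genes were at or near 0 apart from S100a3. It stood at 0.173 and 4.204 FPKM in coculture 1 and 2, against 0.915 and 3.12 FPKM in mock 1 and 2, lower in coculture in pair 1 and higher in pair 2. Its difference was -0.19 ± 0.32 on the log2(FPKM + 1) scale (limma adjusted p = 0.811). S100a5 stood at 0.713 and 0.189 FPKM in coculture, against 0.452 and 1.47 FPKM in mock, which matches an estimated 5 and 0.999 reads in coculture and 3 and 10 reads in mock over the GENCODE M21 exons. S100a2, S100a14, S100a16, S100b and S100g did not exceed 0.207 FPKM, and S100a7a, S100a7l2 and S100z were listed at 0 throughout. S100pbp, which encodes a binding partner of S100P rather than an S100 protein, stood at 10.2 and 12.4 FPKM in coculture, against 10.2 and 12.4 FPKM in mock.

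Genes of other families lying between the members were at or near 0. RefSeq places 55 protein-coding genes of other families between the outermost of the 8 genes on chromosome 3, most of them skin barrier genes such as the small proline-rich and late cornified envelope families. Of these, 51 were found in both tables, of which 47 were listed at 0 in all 4 libraries and none reached 1 FPKM. The highest value was 0.72 FPKM, for Sprr2d in coculture 2. Within that interval the expressed S100 genes thus stood among genes of other families with next to no reads in either condition. Genes on the outer sides of the interval were not examined.

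The annexins, the main membrane partners of the family, also gave no call. Of 12 listed, 9 were tested and 0 were called in either direction. In both pairs 6 were higher, against 21.5% of all genes, and 2 were lower, against 42.2%. The median difference was 0.06. Anxa2, the partner of S100a10, stood at 693 and 661 FPKM in coculture 1 and 2, against 598 and 716 FPKM in mock 1 and 2, with a difference of 0.05 ± 0.16 (limma adjusted p = 0.903). The FPKM ratio of S100a10 to Anxa2 was 1.36 and 1.48 in coculture and 1.35 and 0.752 in mock. That ratio was about the same in 3 libraries, and mock 2 was the low one. Anxa1, which S100a11 binds, stood at 237 and 127 FPKM in coculture, against 215 and 126 FPKM in mock.

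Anxa5, whose protein binds exposed phosphatidylserine, stood at 557 and 717 FPKM in coculture 1 and 2, against 449 and 418 FPKM in mock 1 and 2. Both coculture libraries were above both mock libraries, as for 10.3% of all genes, with a difference of 0.54 ± 0.17 on the log2(FPKM + 1) scale (limma adjusted p = 0.293). Anxa3 differed by 0.60 ± 0.14 (limma adjusted p = 0.211) and Anxa7 by 0.30 ± 0.14, both higher in coculture in each pair. Anxa9 differed by -0.22 ± 0.17. Anxa11, the partner of S100a6, stood at 17.9 and 12.7 FPKM in coculture, against 17.4 and 11.99 FPKM in mock.

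Among 14 other partners of S100 proteins, 11 were tested and 0 were called, with a median difference of 0.01. Ahnak, a giant scaffold protein that binds the S100A10 and annexin A2 complex, stood at 88.5 and 112 FPKM in coculture 1 and 2, against 160 and 239 FPKM in mock 1 and 2. Both coculture libraries were below both mock libraries, as for 21.5% of all genes, and the difference was -0.97 ± 0.12 on the log2(FPKM + 1) scale (limma adjusted p = 0.107). It thus lay on the other side of 0 from S100a10. Tgm2, the gene of tissue transglutaminase, for which S100 proteins are substrates, stood at 3.61 and 1.89 FPKM in coculture, against 0.587 and 0.643 FPKM in mock (limma adjusted p = 0.209). Plgrkt, a plasminogen receptor gene, differed by 0.15 ± 0.12, and Sugt1 by 0.20 ± 0.12. Myh9 and Cacybp, given for their direct link to S100a4 and S100a6 and named after their values were seen, differed by -0.20 ± 0.16 and -0.11 ± 0.11.

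Of 11 genes for receptors and signal partners of secreted S100 proteins, 8 were tested and 0 were called, with a median of 0.09. Cd14, a coreceptor of TLR4, stood at 1732 and 1149 FPKM in coculture 1 and 2, against 607 and 354 FPKM in mock 1 and 2. It was the one gene of this list at least 1.5-fold higher in both pairs, as were 2.4% of all genes. The Cd14 difference was 1.60 ± 0.15 on the log2(FPKM + 1) scale (limma adjusted p = 0.0623). Tlr4 stood at 5.16 and 12.1 FPKM in coculture, against 14.02 and 13.5 FPKM in mock, with a difference of -0.71 ± 0.31 (limma adjusted p = 0.380). Ager, which encodes RAGE, did not exceed 0.190 FPKM.

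Cd36, a scavenger receptor gene whose product binds S100A8 and S100A9 with arachidonic acid, stood at 166 and 122 FPKM in coculture 1 and 2, against 127 and 58.3 FPKM in mock 1 and 2 (limma adjusted p = 0.25). Cd33, a sialic acid receptor gene, stood at 8.63 and 20.4 FPKM in coculture, against 9.50 and 53.6 FPKM in mock (limma adjusted p = 0.382). Bsg, which encodes basigin, a receptor described for S100A9, stood at 197 and 280 FPKM in coculture, against 187 and 220 FPKM in mock (limma adjusted p = 0.514). Cd14 apart, these differences were uneven between the pairs.

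Of 14 genes for transcription regulators and an upstream receptor linked to S100 expression, all 14 were tested and 0 were called. Their median was 0.38, with 7 higher and 4 lower in both pairs, against 21.5% and 42.2% of all genes. Cebpb, a driver of myeloid S100a8 and S100a9 expression, stood at 105 and 91.0 FPKM in coculture 1 and 2, against 73.0 and 50.5 FPKM in mock 1 and 2 (limma adjusted p = 0.182). Junb and Fosl1, AP-1 subunits, differed by 1.33 ± 0.21 and 1.39 ± 0.26 on the log2(FPKM + 1) scale (limma adjusted p = 0.132 and 0.174). Jun, another AP-1 subunit gene, and Cebpa, a relative of Cebpb, were named after their values were seen. They were lower in coculture in both pairs and differed by -0.19 ± 0.13 and -0.64 ± 0.17. Nfkb1 differed by 0.87 ± 0.27 and Klf4 by -0.85 ± 0.17. Spi1, the master regulator of the myeloid lineage, differed by 0.17 ± 0.15, and Stat3 by 0.43 ± 0.16.

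Other alarm signals and metal-binding genes gave no call either. Of 9 alarmin genes 6 were tested. Il1a, whose product leaves cells by an S100A13-dependent route in other cell types, stood at 5.56 and 3.98 FPKM in coculture 1 and 2, against 0.132 and 0.032 FPKM in mock 1 and 2, a difference of 2.40 ± 0.21 on the log2(FPKM + 1) scale (limma adjusted p = 0.0623), while S100a13 differed by 0.02. Lgals3 and Lgals1, galectin genes at 460 to 753 FPKM, differed by -0.30 ± 0.16 and -0.07 ± 0.13. Of 8 metal-handling genes 6 were tested. Slc11a1, a phagosomal metal transporter gene, differed by 1.24 ± 0.22 (limma adjusted p = 0.156), Mt2, a metallothionein gene, by 0.93 ± 0.26 (limma adjusted p = 0.268), and Fth1, the ferritin heavy chain gene, by 0.27 ± 0.22.

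**Figure D4:**
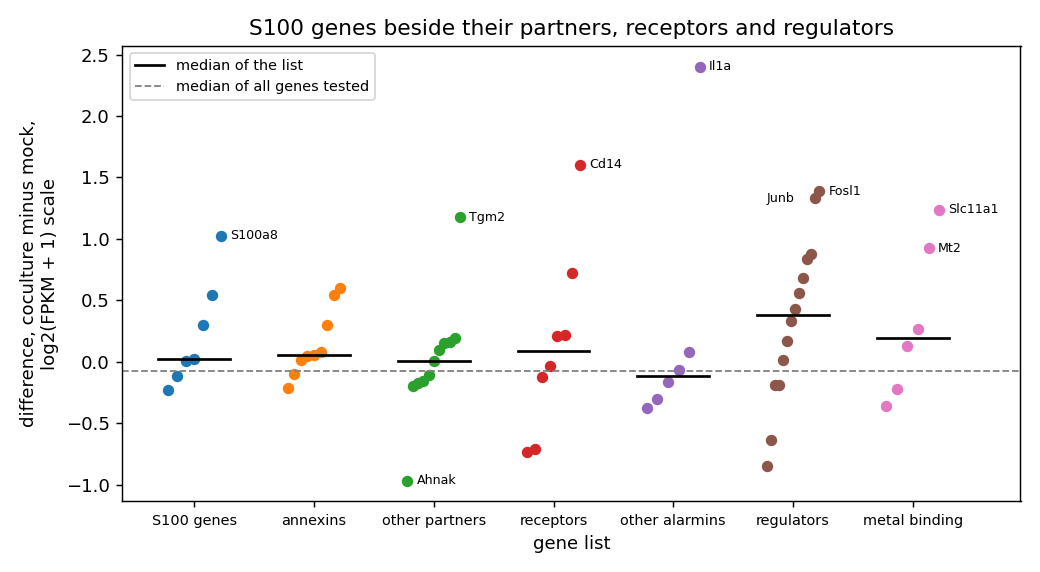
Differences (vertical axis, log2 of FPKM + 1, mock subtracted from coculture) of the tested genes in 7 lists, one point per gene, with a bar at each list's median and a dashed line at the median of all genes tested, -0.07. The S100 median of 0.02 and the annexin median of 0.06 lie close to it, and Il1a and Cd14 are the highest points.

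The genes with the most similar pattern were those nearest to a member by Euclidean distance over the 4 libraries, each gene centred within its table on the log2(FPKM + 1) scale. For S100a10 they were Igf2r, Enpp4 and Cd63, at distances of 0.011, 0.016 and 0.020. For S100a11 they were Homer1, Acot10 and Eif4a3l1, at 0.011, 0.011 and 0.012. For S100a8 they were D330050G23Rik, Slc6a4 and Cfp, at 0.022, 0.059 and 0.066. For S100a4 they were Nap1l1, Xlr and Poc1b, at 0.0097, 0.012 and 0.016. The genes nearest to S100a1, S100a6 and S100a13 lay within 0.0064. With 10202 genes and 4 libraries, near neighbours are found for almost any pattern.

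The gap between the tables was often wider than that between coculture and mock. The FPKM of mock 2 was 1.82 times that of mock 1 for S100a1, 1.77 times for S100a11 and 1.38 times for S100a13. It was 0.666 times for S100a10, 0.817 times for S100a6 and 0.996 times for S100a4. For S100a8, near the edge of detection, it was 0.122 times. The tables hold different sets of gene names and may have been scaled separately, so such gaps cannot be told apart from differences between the cultures. Over the GENCODE M21 exons S100a13, the lowest after S100a8, stood for an estimated 317 and 325 reads in coculture 1 and 2, and 293 and 416 reads in mock 1 and 2.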

How the data were processed

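Messenger RNA libraries were made with the Vazyme VAHTS v2 kit, per the labels' protocols. The authors deposited FPKM in 2 tables, each with 1 coculture and 1 mock library. Trim Galore, Subread and featureCounts were used, per the submitters' processing notes, which name the human build hg38 although the symbols are mouse; the sources used here name no version, annotation or gene length. The tables have 23427 and 25239 rows, and the second is rounded to 3 decimals, per the file headers and values. Rows with a blank (23) or repeated (287) name were left out.

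FPKM were used as deposited, as log2(FPKM + 1), in limma 3.58.1 (R 4.3.3; eBayes with a trended prior, two-sided) with the pair as a block, since each replicate number has a table of its own. Residual degrees of freedom were 1 and prior ones 3.43. The value after each ± is a standard error moderated by limma, so it draws on the spread of other genes. The deviations of the libraries of a pair correlated at 0.76 across genes. A call was an adjusted p under 0.05. The script was tested on simulated data. Reads per library were estimated from the steps of low FPKM times GENCODE M21 exon lengths, with 32.1% to 34.6% of the values of 1 to 5 reads within 0.02 of a whole number, since many gene lengths differ; no count test was run on them. The members and lists were chosen with earlier results of these data known. From each list up to 4 genes were named, those whose mean difference was largest among genes moving one way in each pair, beside a few fixed names and, per member, the 3 genes of nearest pattern. The alternatives were 12 other settings of pseudocount, filter, scaling, block, prior and libraries.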

Additional observations from a re-analysis of the deposited data

How the results depend on the processing

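No S100 gene was called under any of the 12 alternatives, and 11 of 83 member values changed sign, all of genes that were not called. After rescaling to a common total S100a6 was at -0.044 and S100a13 at -0.027. Leaving out 1 library at a time needs an unblocked fit across both tables and assumes that the lone library varies like the other group. Ranges in these fits were -0.55 to 0.31 for S100a1, -0.47 to 0.01 for S100a4 and -0.21 to 0.22 for S100a6. They were -0.12 to 0.71 for S100a11, -0.21 to 0.25 for S100a13, 0.25 to 0.83 for S100a10 and 0.52 to 1.53 for S100a8. S100a10 and S100a8 could not change sign here, since both their coculture libraries lay above both mock libraries. The median of the tested members was -0.027 after rescaling, 0.087 after median centring, and -0.12 to 0.25 without 1 library. With a pseudocount of 0.1, 1 member, S100a8, was at least 1.5-fold higher in both pairs. Over all genes, 13 higher calls became 22 with a pseudocount of 0.1, 0 with no filter (1620 at an unadjusted p under 0.05), 25 higher and 1 lower at 5 FPKM or more, 85 higher and 18 lower after median centring, 1 with no replicate block (the pair left out of the model), 1 without the variance trend, and 0 without any 1 library (176 to 523 at an unadjusted p under 0.05). The S100a8 values rest on few estimated reads, and why S100a9 was listed at 0 was not tested.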
